A study of Mus musculus with 12 samples.

Results

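H3K9/14ac, the acetylation of histone H3 at lysines 9 and 14, was compared between 2 chromatin immunoprecipitation (ChIP-seq) libraries of fibro-adipogenic progenitors (FAPs) from young mdx mice. FAPs are mesenchymal cells of skeletal muscle that can become fibroblasts or adipocytes, and mdx mice lack dystrophin, so that their muscle degenerates and regenerates throughout life. Both groups were C57Bl6 mdx mice of 1.5 months, given daily intraperitoneal injections over 15 days. One group received trichostatin A (TSA) at 0.6 mg/kg/day in saline, the other saline alone (vehicle). Cells were sorted by flow cytometry, and chromatin was taken from sonicated nuclei; the sources used here give neither the sorting gate nor the number of animals behind each library. No group of untreated or of dystrophin-competent mice enters the comparison, so both libraries carry the mdx background and repeated injection. Each side had 1 library, and therefore no replicate error exists and no test between the groups was made. The errors given below come from counting alone.

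The members were the peaks of these 2 libraries on chromosome 1 and on chromosome 2 up to position 167064301, the stretch that both peak lists cover. They numbered 3336 with TSA and 2711 with vehicle, or 6047 of the 77135 peaks read from all 8 libraries of the series. The TSA list held 12.8% and the vehicle list 12.6% of the peaks their headers count, so that the stretch samples both lists alike. A tag is 1 aligned sequence read counted in a peak, not scaled to the depth of the library. Peaks of the stretch held 631446 tags over 2.78 Mb with TSA (226.9 tags per kb) and 452476 tags over 2.33 Mb with vehicle (194.6 tags per kb). The sources used here do not give the full depth of the libraries. A general shift in acetylation therefore cannot be told apart from a difference in depth. All tag ratios below are relative to the median region, except where they are said not to be centred.

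Acetylation removes the positive charge of lysine and loosens the contact between histone tails and DNA. Histone acetyltransferases write it, bromodomain proteins read it, and histone deacetylases, the enzymes that TSA blocks, erase it. H3K9 and H3K14 acetylation lies mainly on the nucleosomes that flank the start sites of active genes, while acetylation of lysine 27 (H3K27ac) marks active promoters and enhancers alike. In young mdx mice, deacetylase inhibitors are known to reduce the fibrosis and fat that replace muscle, and FAPs are among the cells on which they act.

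One property of the libraries bears on every value. Over 1883 regions with a peak in all 4 H3K9/14ac libraries of the series, the tag ranks of the young TSA library were nearest to those of the old vehicle library (Spearman 0.938) and the ranks of the young vehicle library nearest to old TSA (0.938). The 2 young libraries had 0.919 with each other, and the young and old TSA libraries 0.917. These values describe regions that share DNA sequence and mappability, and carry no p. Tags per kb in peaks paired the libraries in the same way. They were 226.9 (young TSA) and 251.8 (old vehicle), against 194.6 (young vehicle) and 167.1 (old TSA). The libraries are called TSA and vehicle as they are labelled. An exchange of labels at 1 age, a response that differs with age and a difference in library enrichment or depth cannot be told apart.

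Peaks that overlapped or touched were merged into 3560 regions, and each was called gained where only the TSA library had a peak, lost where only vehicle had one, and shared otherwise. To show the DNA behind the results, the 250 bases before the start of 8 genes are printed here from the RefSeq promoter table of GRCm38.p6, 5′ to 3′ on the strand of the gene. They show starts of different base composition on both sides of the comparison: the first 4 had a gained region or more relative tags with TSA, and the last 4 a lost region or fewer. Capitals mark matches on either strand to 8 motifs searched: the TATA box (TATAAA), the CCAAT box (CCAAT), the GC box (GGGCGG), the AP-1 site (TGANTCA), the endoplasmic reticulum stress element, the ETS site (CCGGAAG), the E-box (CACGTG) and the NRF1 site. Only fixed letters are in capitals, and the stress element contains the CCAAT box. A match is a description of the letters, not evidence of a bound factor.
F11r (chr1:171437311-171437560, plus strand): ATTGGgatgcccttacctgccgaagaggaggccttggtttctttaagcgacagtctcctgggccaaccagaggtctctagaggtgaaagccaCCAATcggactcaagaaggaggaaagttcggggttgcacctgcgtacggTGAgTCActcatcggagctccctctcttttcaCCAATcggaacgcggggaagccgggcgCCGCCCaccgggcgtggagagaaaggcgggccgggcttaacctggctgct
Gli2 (chr1:119053620-119053869, minus strand): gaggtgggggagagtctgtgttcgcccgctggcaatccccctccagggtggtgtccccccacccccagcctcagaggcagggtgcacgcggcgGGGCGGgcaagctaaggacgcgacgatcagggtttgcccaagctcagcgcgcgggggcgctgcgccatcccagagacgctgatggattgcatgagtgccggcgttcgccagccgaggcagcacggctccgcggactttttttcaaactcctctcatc
Nr1h3 (chr2:91195036-91195285, minus strand): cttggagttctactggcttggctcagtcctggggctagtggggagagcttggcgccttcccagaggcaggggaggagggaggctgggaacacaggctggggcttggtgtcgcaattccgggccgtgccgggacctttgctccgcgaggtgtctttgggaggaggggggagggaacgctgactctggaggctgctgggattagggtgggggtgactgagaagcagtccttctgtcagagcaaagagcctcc
Chst1 (chr2:92600867-92601116, plus strand): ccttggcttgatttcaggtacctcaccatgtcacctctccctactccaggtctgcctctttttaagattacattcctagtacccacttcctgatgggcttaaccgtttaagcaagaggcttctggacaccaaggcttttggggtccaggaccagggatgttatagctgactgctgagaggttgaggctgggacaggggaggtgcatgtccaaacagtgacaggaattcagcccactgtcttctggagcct
Fkbp7 (chr2:76673099-76673348, minus strand): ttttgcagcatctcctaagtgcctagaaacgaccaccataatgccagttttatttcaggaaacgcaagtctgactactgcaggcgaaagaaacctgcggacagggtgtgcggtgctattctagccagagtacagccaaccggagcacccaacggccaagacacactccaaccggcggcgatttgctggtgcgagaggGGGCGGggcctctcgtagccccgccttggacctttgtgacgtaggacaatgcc
Col3a1 (chr1:45311288-45311537, plus strand): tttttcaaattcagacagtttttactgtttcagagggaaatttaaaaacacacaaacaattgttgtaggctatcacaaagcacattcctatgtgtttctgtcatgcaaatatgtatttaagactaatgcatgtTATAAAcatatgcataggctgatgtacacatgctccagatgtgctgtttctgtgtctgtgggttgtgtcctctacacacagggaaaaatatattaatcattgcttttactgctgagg
Dpt (chr1:164796413-164796662, plus strand): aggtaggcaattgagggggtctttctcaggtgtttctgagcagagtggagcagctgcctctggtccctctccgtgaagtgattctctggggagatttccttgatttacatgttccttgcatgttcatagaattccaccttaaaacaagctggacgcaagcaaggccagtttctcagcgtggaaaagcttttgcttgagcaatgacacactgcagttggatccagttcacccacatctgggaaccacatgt
Hspa5 (chr2:34771840-34772089, plus strand): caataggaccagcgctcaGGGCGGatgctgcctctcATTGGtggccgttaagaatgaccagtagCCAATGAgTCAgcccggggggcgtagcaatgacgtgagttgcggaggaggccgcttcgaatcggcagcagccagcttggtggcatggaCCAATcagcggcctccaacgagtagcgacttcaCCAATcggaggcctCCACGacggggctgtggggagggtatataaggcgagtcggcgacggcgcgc
The F11r sequence, with 60.0% G and C, holds 3 CCAAT boxes, 1 GC box and 1 AP-1 site, and lay in a region that only the TSA library had. The Col3a1 sequence, with 35.2% G and C, holds a TATA box and lay at a start with fewer tags under TSA. The stress element in the Hspa5 sequence is 1 of 2 found among the 2919 start sites of the stretch. The Chst1, Nr1h3 and Dpt sequences hold none of the 8.

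More places carried a peak in the TSA library. Of the 3560 regions, 1169 were gained (32.8%), 327 were lost (9.19%) and 2064 were shared. Gained regions held a median of 49 tags and at most 303, and lost regions a median of 46 and at most 223, while shared regions held a median of 233 tags with TSA and 181.5 with vehicle. A start window is 1000 bp either side of an annotated start, or of both gene ends where no start is given. Such windows were touched by 27.3% of gained regions (95% exact binomial interval 24.8 to 29.9), 27.5% of lost regions (22.8 to 32.7) and 77.7% of shared regions (75.8 to 79.4). The counts depend on weak peaks and on list length. With only the upper 50% of peaks by tags, 403 regions were gained and 48 lost, and 63.03% of the gained ones touched start windows. With lists of equal length 635 were gained and 393 lost, so that part of the excess goes with the longer TSA list. Between equal lists, the excess that is left goes with more vehicle than TSA peaks in shared regions. With all peaks, 255 shared regions held 1 TSA peak beside more vehicle peaks, and 66 the reverse. The excess is thus not a count of added places alone. Among all peaks, another 50.7% of gained regions lay inside genes, at a median of 12243 bp from the nearest start, and 22.0% lay outside genes. Gained regions made up 31.4% of regions on chromosome 1 and 34.0% on chromosome 2, with overlapping intervals. In bulk chromatin, more cells of a type and more acetylation per cell cannot be told apart. Intervals cover counting error only.

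Distances to the nearest peak of the other library differed between gained and lost regions. A gained region was a median of 9696 bp away from the nearest vehicle peak, and 24.5% (22.0 to 27.03) lay within 1000 bp of one. A lost region was a median of 853 bp away from the nearest TSA peak, and 52.3% (46.7 to 57.8) lay within 1000 bp of one. The TSA list is the longer one, which shortens the distance for lost regions, and the nearest TSA peak of a lost region can itself be a gained one. Other libraries had peaks at part of these places: 47.1% of gained regions overlapped an H3K27ac peak of young vehicle FAPs and 43.3% one of young TSA FAPs, against 74.9% and 62.1% of lost regions and 86.6% and 84.7% of shared regions. H3K9/14ac peaks of the old vehicle and old TSA libraries overlapped 36.6% and 28.1% of gained regions. They overlapped 38.5% and 37.9% of lost regions and 94.7% and 93.8% of shared regions. The H3K27ac lists differ in length (5791 peaks with vehicle and 4325 with TSA in the same stretch), so that no change of H3K27ac can be read from these shares.

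**Figure D1:**
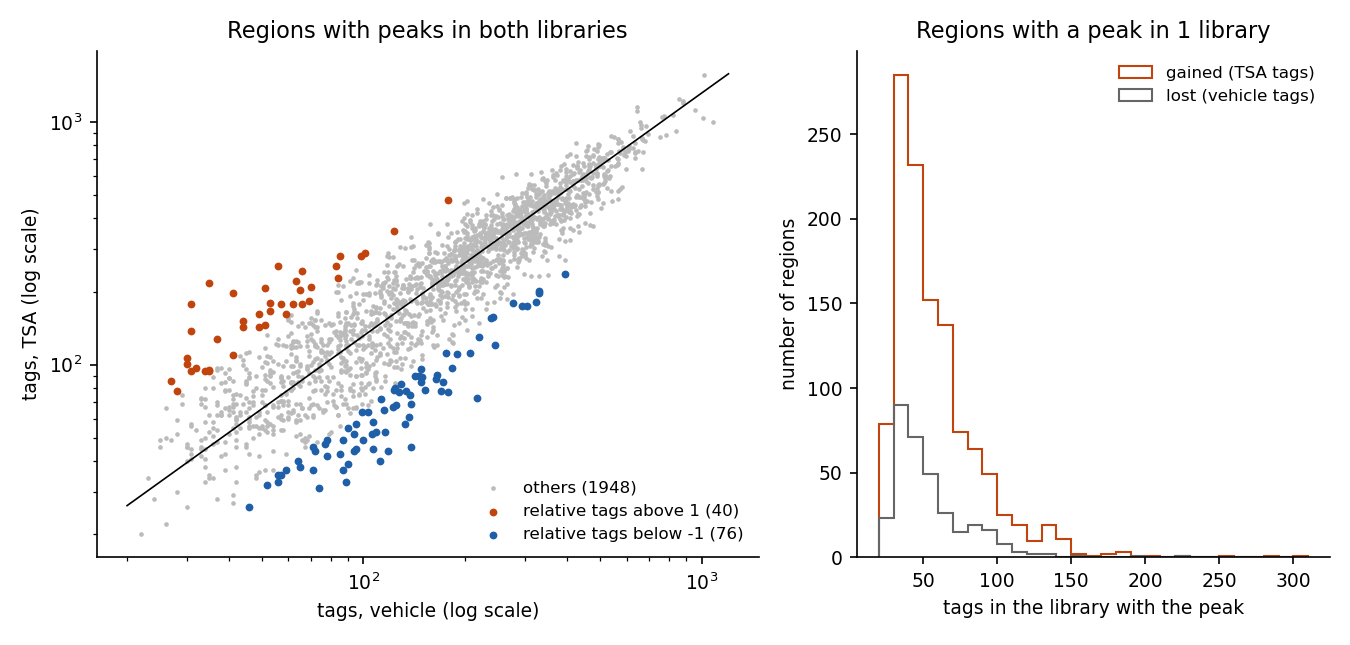
Left, tags in each of the 2064 shared regions with vehicle (x axis) and TSA (y axis), both on log scales; the line is the median ratio, and coloured points lie past a relative difference of 1 on the log2 scale (40 higher, 76 lower). Right, number of gained and lost regions by their tags in the only library with a peak; both pile up below 100 tags, with 1169 gained and 327 lost in all.

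The regions with the most tags lay in start windows and had relative tags within 0.5 of 0. The region at Itpkb, an inositol trisphosphate kinase gene, held 1016 tags with vehicle and 1563 with TSA, the most of any region with TSA. Jag1, a Notch ligand, followed with 857 and 1246 tags, and Nrp2, a co-receptor of semaphorins and vascular growth factors, with 881 and 1220. Hjurp, a chaperone of centromeric histone, held the most tags with vehicle, 1077 against 1002 with TSA. Across shared regions the tags of the libraries had a Spearman correlation of 0.922 (n = 2064 regions, which share sequence and mappability). Relative tags, the log2 ratio of TSA over vehicle minus the median ratio of shared regions (0.39), had an SD of 0.48 over regions, against a median counting error of 0.14.

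Tag density, in contrast to the number of tags, changed with how strongly a place was marked. Shared regions were split into 5 equal classes by their mean tags. In the lowest class the median density was 149.1 tags per kb with vehicle and 152.0 with TSA. In the highest class it was 228.9 with vehicle and 314.8 with TSA. The median log2 ratio of densities went from 0.02 in the lowest class to 0.17, 0.31, 0.41 and 0.45 in the highest. These ratios are not centred, and their median over all shared regions was 0.29. Relative to that median the strongest class was denser with TSA and the weakest less dense. Whether a class was denser in itself cannot be told apart from depth. How far the threshold of the peak caller sets the density of the weakest class was not tested.

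The libraries also differed in the form of the mark around gene starts. With vehicle, 37.1% of the 2919 start sites lay in a peak and with TSA 46.7%. At 100 bp upstream of the start, where active promoters carry a stretch poor in nucleosomes, 29.3% of positions lay in a vehicle peak and 42.7% in a TSA peak. At 200 bp downstream the values were 46.5% and 51.6%, and at 1000 bp downstream the order turned, with 22.8% and 19.9%. Vehicle peaks were often split there: of 769 starts with a vehicle peak both 300 bp upstream and 200 bp downstream, 174 had none at 100 bp upstream (22.6%), against 86 of 913 with TSA (9.42%). In the same way 255 shared regions held a single TSA peak beside 2 or more vehicle peaks, and 66 the reverse. The old libraries had such a gap at 20.8% (vehicle) and 14.6% (TSA) of flanked starts, and the young H3K27ac libraries at 13.6% and 11.2%. The shift that the peak program applied to tags, which follows the estimated fragment length, was 103 bp (vehicle) and 119 bp (TSA) in the H3K9/14ac libraries of young FAPs, and 105 and 111 bp in H3K27ac. Its part in the width of the gap was not tested.

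**Figure D2:**
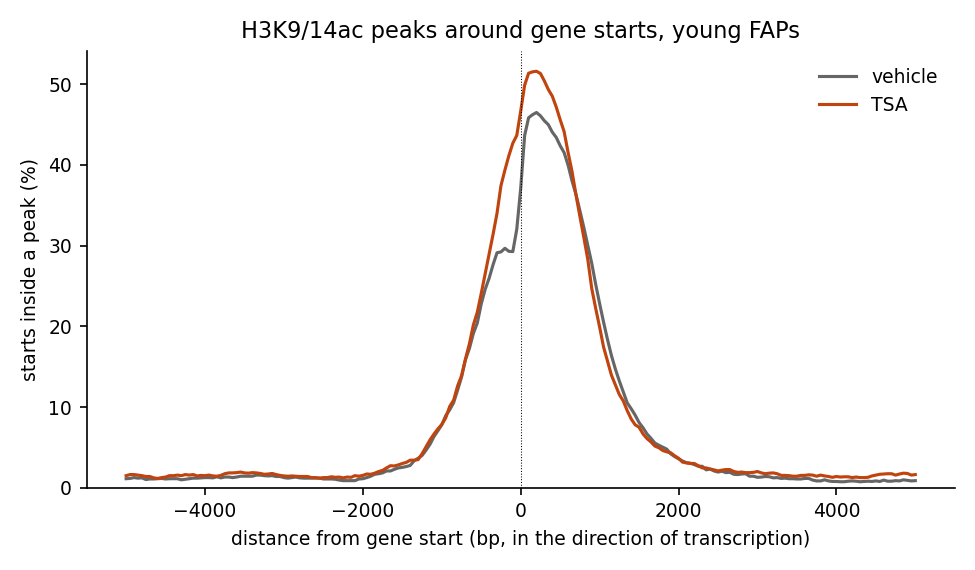
Share of 2919 start sites inside a peak (y axis, %) by distance from the start (x axis, bp, downstream positive) with vehicle (grey) and TSA (orange). The vehicle curve dips just upstream of the start, where it is at 29.3% against 42.7% with TSA 100 bp upstream, and the curves cross downstream.

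Among shared regions, few lay past a relative difference of 1 on the log2 scale, which is a 2-fold relative difference. Of 2064 shared regions 40 were higher with TSA (1.94%) and 76 lower (3.68%). These were regions whose peaks differed in width. The 40 higher regions had a median width of 354.5 bp (vehicle) and 980.5 bp (TSA), and all 40 were wider with TSA. The 76 lower regions had 752.5 and 416 bp, and none was wider with TSA. Their densities, as counted, had medians of 147.0 (vehicle) and 151.7 (TSA) tags per kb in the higher and 155.9 and 151.2 in the lower group. The 1948 shared regions between had 181.4 and 220.8. Relative to these, both groups were thus less dense with TSA. By tags per kb 0 regions were higher and 5 lower. The values below are thus mainly differences in how far peaks reached around a place. Whether weak flanks passed the threshold of the peak caller was not tested.

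The 12 start regions with the highest relative tags lay between 1.15 and 2.23. Tcf15, a transcription factor gene of the paraxial mesoderm, had 35 tags over 248 bp with vehicle and 216 tags over 1468 bp with TSA (relative tags 2.23 ± 0.26). Chst1, a carbohydrate sulfotransferase gene (chr2:92599689-92600943), had 31 and 178 tags (2.13 ± 0.28). Nr1h3, which encodes the oxysterol receptor LXR alpha, a regulator of lipid genes (chr2:91194245-91195380), had 51 and 207 (1.63 ± 0.23). At Chst1 the peak was 221 bp long in vehicle and 1254 bp in TSA, while at Nr1h3 414 and 1135 bp. Sstr4, a somatostatin receptor gene, had 37 and 128 tags, and Ak1, an adenylate kinase gene, 44 and 151. Gli2, the Hedgehog transcription factor, had 53 and 179 tags in the region on its start (chr1:119053498-119054452) and 101 and 288 in the next one downstream. Bmp2, a bone morphogenetic protein gene, had 83 and 254 (1.22 ± 0.18). Kcnip3, Gpr176, Pou2f1, Ciz1 and Fam78b completed them, with relative tags of at most 1.33.

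The 12 start regions with the lowest relative tags lay between -1.98 and -1.31. Ppp1r12b, a subunit of myosin phosphatase, had 138 tags with vehicle and 46 with TSA (-1.98 ± 0.25). Serping1, the C1 inhibitor of the complement cascade, which fibroblasts secrete (chr2:84773351-84775119), had 216 and 73 tags (-1.96 ± 0.20). Angptl1, an angiopoietin-like secreted factor, had 2 such regions, with 152 and 79 tags on its start and 106 and 52 within 1000 bp of it. At Serping1 the covered length was 1476 bp with vehicle and 603 bp with TSA. Idh1, the cytosolic isocitrate dehydrogenase gene, had 107 and 45 tags, Celf2, an RNA-binding protein gene, 116 and 53, and Cdc42bpa, a kinase gene of the actin cytoskeleton, 170 and 78. Dedd, 1700025G04Rik, Zfp442, Ccdc141 and a region shared by Adal and Lcmt2 were the other members, between -1.88 and -1.31.

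The 10 gained regions with the most tags held between 170 and 303. Ralgds, a Ral guanine nucleotide exchange factor gene, held a gained region of 303 tags over 2473 bp inside the gene (chr2:28524661-28527134) and none with vehicle. F11r, which encodes the junctional adhesion molecule JAM-A, held one of 282 tags over 1454 bp on its start (chr1:171437249-171438703). Per2 and Cry2, both repressors of the clock, held gained regions of 258 and 180 tags inside the genes. Niban2 (222), Tns1 (204), Mapk8ip1 (183), Dgkz (181), Dnm1 (172) and Nr6a1 (170) were the others, those of Dgkz and Nr6a1 on a start. With 0 tags in any vehicle peak no fold can be given, since a place without a peak can still hold reads below the threshold of the peak caller.

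The lost regions with the most tags held up to 223. Fkbp7, a peptidyl-prolyl isomerase of the endoplasmic reticulum, held 223 tags over 1317 bp on its start with vehicle and no TSA peak there (chr2:76671875-76673192). Mr1, which presents vitamin B metabolites to T cells, held 193 on its start. Fn1, the fibronectin gene, lost a region of 157 tags inside the gene (chr1:71650532-71651781), 1499 bp from the nearest start, and Prrx1, the homeobox factor of limb mesenchyme, one of 131 tags over 1145 bp inside the gene (chr1:163309670-163310815). At both genes the neighbouring peak nearer to the start was kept. Hspa5, the chaperone BiP, lost a region of 128 tags inside the gene, and Ackr3, a scavenger receptor of the chemokine CXCL12, another of 128. Arl5a (115), Ifih1 (115) and Cd46 (113) were also among the lost regions with the most tags.

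Peaks were then summed over each gene with 10000 bp either side, a window in which neighbouring genes can share peaks. Of 2825 protein-coding genes 1889 held a peak in a library and 1713 in both. Relative tags above 1 were found in 69 of the 1713 (4.03%) and below -1 in 22 (1.28%), with a median of 0.02 over all. Another 152 windows held peaks with TSA only (5.38% of 2825) and 24 with vehicle only (0.85%). The 69 higher windows had a median covered length of 467 bp (vehicle) and 1666 bp (TSA), at 142.3 and 153.1 tags per kb. The 22 lower windows had 1572 and 616.5 bp, at 161.9 and 159.4 tags per kb. All windows with peaks in both libraries had medians of 192.2 (vehicle) and 231.7 (TSA) tags per kb. By tags per kb, 0 windows passed the same threshold in either direction, so that these differences too are mainly in covered length.

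Some genes gathered many separate gained regions along their bodies. At least 3 gained regions lay in the windows of 117 genes (4.14%) and at least 10 in those of 9. Tns1, the focal adhesion protein tensin 1, had 11 vehicle peaks with 1215 tags and 31 TSA peaks with 3152 tags over its gene of 214316 bp, 22 gained regions in all (relative tags 0.98 ± 0.05). Itpkb had 16 gained regions beside 5 lost ones, with 1915 and 3283 tags. Rxra, the retinoid X receptor that pairs with LXR and PPAR receptors, had 14 (679 and 2140 tags, 1.26 ± 0.06). Zmynd8, a reader of acetylated and methylated histones, had 12 (389 and 1421 tags, 1.48 ± 0.08), as had Niban2. Bmf, Dab2ip, Notch1 and Sox13 had 10 each. Longer genes offer more room for peaks, and the part of gene length in these counts was not tested. Notch1 spans 45920 bp and Tns1 214316 bp. At Tns1 the peaks of TSA were less dense than those of vehicle relative to the median (-0.40 by tags per kb).

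**Figure D3:**
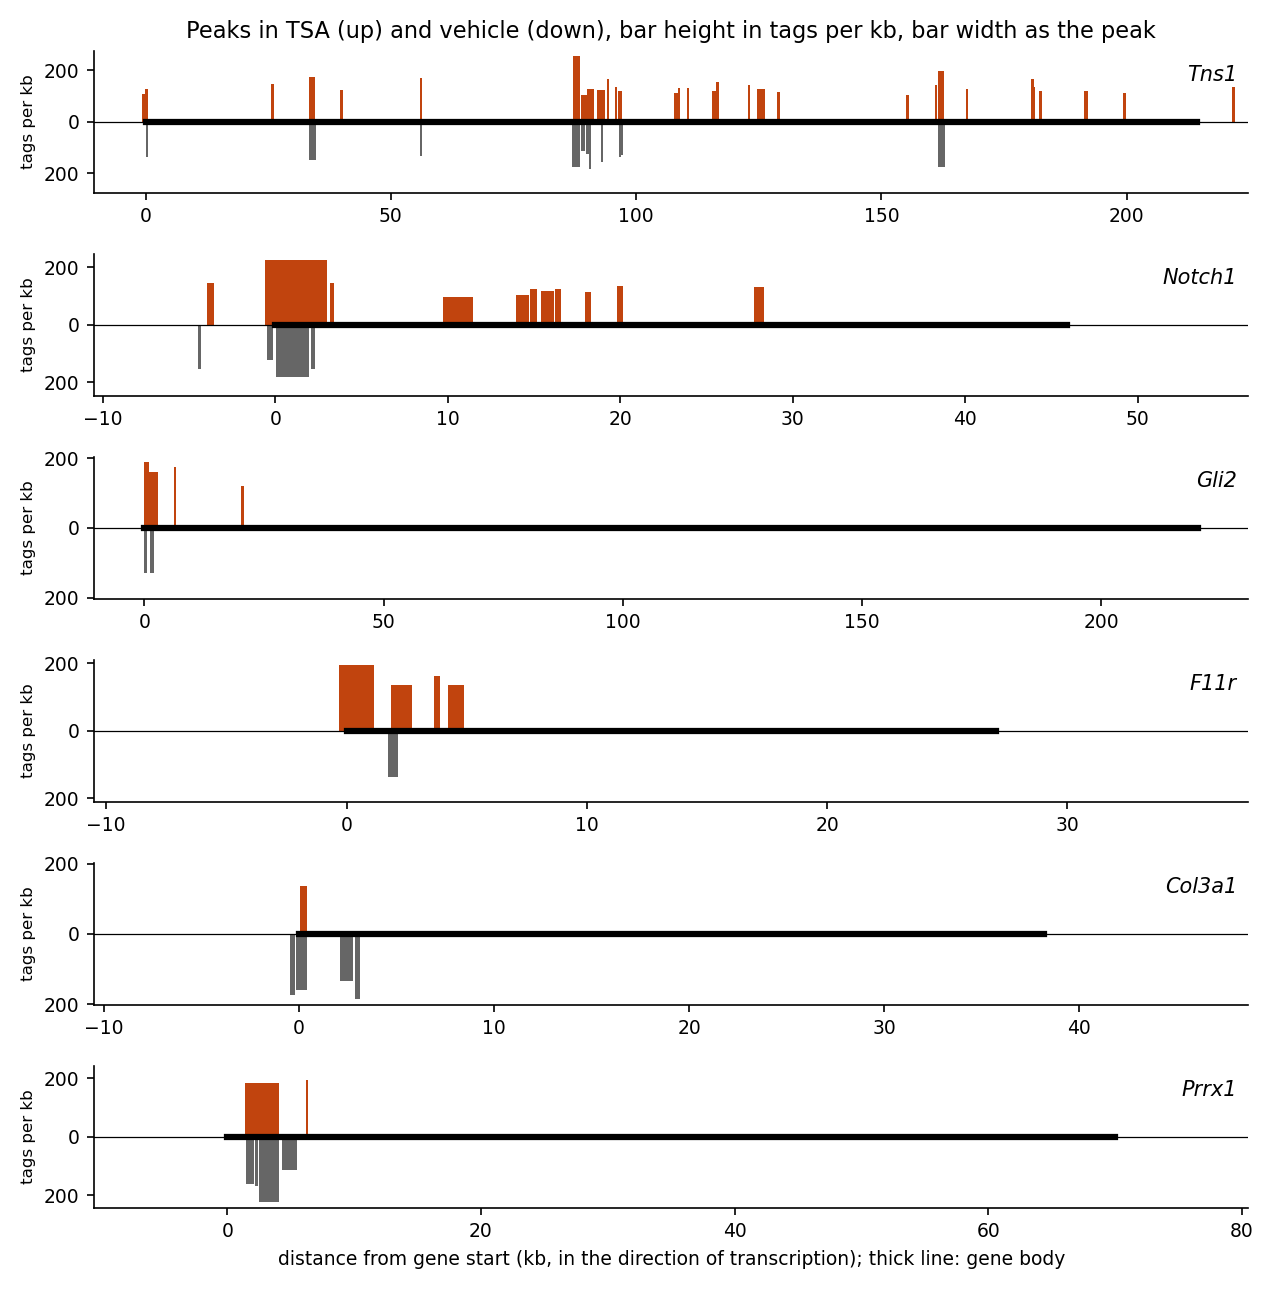
Peaks at 6 genes by distance from the gene start (x axis, kb), TSA upwards and vehicle downwards; bar height is tags per kb, bar width the width of the peak, the thick line the gene. Tns1 and Notch1 show several TSA peaks inside the gene, F11r a TSA peak on the start without a vehicle peak, and Col3a1 and Prrx1 vehicle peaks without a TSA peak.

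Among Wnt, Notch and Hedgehog genes, Gli2 and Notch1 were past 1 and none was past -1, against 69 and 22 of 1713 over all windows. In the list of Wnt, Notch and Hedgehog genes 9 of 13 members had peaks in both libraries, 7 of them with relative tags above 0, against 898 of 1713 over all windows. Their median was 0.41, against 0.02 over all. Gli2 had 154 tags with vehicle and 619 with TSA (1.61 ± 0.13) and Notch1 454 and 1511 (1.34 ± 0.08). On the Notch1 start 1 TSA peak of 818 tags spanned a place where vehicle had 3 peaks, of 40, 346 and 38 tags, and 8 of the other TSA peaks lay between 9721 and 28348 bp into the gene, where vehicle had none. The ligand genes differed: Dll4 had 461 and 1125 tags (0.89 ± 0.08) but Jag1 857 and 1246 (0.15 ± 0.06). Of the Wnt receptors, Fzd5 had 254 and 443 tags and Fzd7 524 and 858. Ihh, the Indian hedgehog ligand, and Wnt10a had small peaks with TSA only, of 37 and 28 tags, and Wnt6 and Rspo4 none. By tags per kb the median of the list was -0.03, and with the upper 50% of peaks 0.78.

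Hox genes of the Hoxd cluster, which pattern the limb, all lay on 1 side of 0 without passing 1. All 6 members with peaks in both libraries were above 0, against 898 of 1713 over all windows. They went from Mtx2, the neighbour of the cluster, at 0.15 ± 0.12 to Hoxd4 at 0.75 ± 0.15. Their median was 0.55 (0.07 by tags per kb). Hoxd8 had 651 and 1243 tags and Hoxd9 439 and 845. Hoxd11, Hoxd12, Hoxd13 and Evx2, at the other end of the cluster, had no peak in either library, and Hoxd1 had 66 tags with TSA only. The windows of adjacent Hox genes share peaks, so that these are not separate observations.

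In the TGF-beta and BMP list 11 of 16 members were marked in both libraries, with a median of 0.20 (0.08 by tags per kb). Of the 11, 7 lay above 0 and 1 past 1, against 898 and 69 of 1713 over all windows. Bmp2, which induces osteogenic and chondrogenic genes in mesenchyme, was past 1 with 129 and 343 tags (1.02 ± 0.15). The receptor genes Bmpr2 (0.17), Acvr1 (0.20) and Acvr2a (-0.33) lay near 0, as did the target gene Id1 (-0.11). Gdf5 had 46 tags and Acvr1c 51 with TSA only, while Mstn and Grem1 had no peak. Of 8 genes of adipogenesis and lipid handling marked in both libraries, 4 lay above and 4 below 0, near the 898 and 815 of 1713 over all windows. Rxra alone of the 8 was past 1. The retinoid receptor Rxrg had 85 tags with TSA only.

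Collagen genes diverged. Col3a1, the type III collagen gene (chromosome 1, 45311538 to 45349706), had 4 vehicle peaks of 40 to 89 tags, 272 in all, and a single TSA peak of 49 tags on its start (-2.87 ± 0.22), the lowest window of the stretch. The 2 vehicle peaks between 2116 and 3148 bp into the gene had no TSA counterpart. Col5a2, its neighbour, had 371 and 198 tags (-1.30 ± 0.13). Col6a3 had 586 and 607 (-0.34 ± 0.08), but Col5a1 787 and 1181 with 5 gained regions (0.19 ± 0.07) and Col4a3 364 and 727 (0.60 ± 0.09). Col4a4 had 132 tags with TSA only, and Col19a1 53 with vehicle only. Of the 5 genes marked in both libraries, 2 lay past -1 and none past 1, against 22 and 69 of 1713 over all windows. Their median was -0.34, or -0.24 by tags per kb. It was -0.82 with 2000 bp either side of the gene and -0.13 with the upper 50% of peaks.

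In the list of further matrix genes 9 of 19 were marked in both libraries and none passed 1 in either direction. Of the 9, 7 lay below 0, against 815 of 1713 over all windows. Their median was -0.23, or -0.07 by tags per kb, and 4 more were marked with TSA only and 1 with vehicle only. Fap, the fibroblast activation protease, had 226 and 150 tags (-0.99 ± 0.15), Thbs1, thrombospondin 1, had 304 and 239 (-0.74 ± 0.12), and Lamc1, a laminin chain, 1032 and 1029 (-0.40 ± 0.06). Fbn1, the fibrillin 1 gene, lay at 0.01 ± 0.08. Tnfaip6, which encodes the hyaluronan-binding anti-inflammatory protein TSG-6, had 3 vehicle peaks with 248 tags and no TSA peak, the most tags of any window marked with vehicle only. Against this, Igfbp5, which encodes a secreted binding protein of insulin-like growth factors, had 270 tags in 4 regions with TSA only, the most of the windows marked with TSA only. Adamtsl2 (191 tags) and Mmp9 (122) were also marked with TSA only. Outside the lists, the windows of Tfpi (308 and 104 tags, -1.96 ± 0.16), Calcrl (353 and 143, -1.70 ± 0.14), Serping1, Fgf7 (388 and 219, -1.22 ± 0.12) and Cd44 (596 and 378, -1.05 ± 0.09) were past -1. Fgf7 is a fibroblast growth factor that acts on epithelium and Cd44 the hyaluronan receptor. These 5 genes were named after their values were seen, and the windows of Tfpi and Calcrl overlap.

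Genes that identify FAPs all carried a peak. Of the 7 listed members in the stretch 6 had a marked start in both libraries and Dpp4, a cell surface protease, had 85 tags with TSA only. Over all 2825 genes 1889 windows held a peak, 152 of them with TSA only, and 1473 starts were marked in both libraries. Cd34, the progenitor antigen, had 462 and 437 tags (-0.47 ± 0.10), Prrx1 621 and 534 (-0.61 ± 0.09), and Dpt, dermatopontin, 390 and 279 (-0.88 ± 0.11). Twist2, a repressor of mesenchymal differentiation, went the other way with 126 and 349 (1.08 ± 0.15), and Gsn, the actin-severing gelsolin, with 193 and 485 (0.94 ± 0.12). Of the 6, 2 lay above 0, 4 below and 1 past 1, against 898, 815 and 69 of 1713 over all windows. The median of the 6 was -0.40, or -0.19 by tags per kb.

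Interferon and antiviral genes had a median of -0.73 over the 9 of 12 members marked in both libraries, against 0.02 over all windows. Of the 9, 7 lay below 0 and 2 past -1, against 815 and 22 of 1713 over all windows. The median of the interferon list was the lowest of the 24 lists, but it was -0.46 with lists of equal length. With the upper 50% of peaks it was -0.07, where FAP identity (-0.35) and housekeeping genes (-0.20) lay lower. Ifi203, a DNA sensor of the interferon-inducible p200 family, had 204 and 64 tags (-2.07 ± 0.21) and Ifi204 131 and 93 (-0.89 ± 0.20). Ifih1, the RNA sensor MDA5, had 410 and 292 (-0.88 ± 0.11) and B2m, the light chain of MHC class I, 603 and 479 (-0.73 ± 0.09). Sp100, a nuclear body protein, had 59 and 37 (-1.07 ± 0.30). Ifi205 (98 tags) and Aim2 (36) were marked with TSA only. The p200 genes neighbour each other on chromosome 1, so that their windows are not independent. By tags per kb the median was -0.08.

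Genes of protein folding in the endoplasmic reticulum, the organelle that prepares collagen for secretion, had a median of -0.16. Of 12 members marked in both libraries 10 lay below 0 and 1 past -1, against 815 and 22 of 1713 over all windows. Centred on housekeeping starts the median of the list was 0.04. Hspa5 had 695 and 520 tags (-0.81 ± 0.08), and on its start, whose sequence is printed above, 567 and 520. Fkbp7 had 484 and 244 (-1.38 ± 0.11), a window it shares with Plekha3. Dnajc10, a reductase of misfolded proteins, had 265 and 250 (-0.48 ± 0.13), and Pdia3, a disulfide isomerase, 662 and 726.6 (-0.26 ± 0.08). Atf6, a sensor of the unfolded protein response, lay at -0.22 ± 0.10. Of 23 housekeeping genes 19 lay below 0, against 815 of 1713 over all windows, with a median of -0.20. Their median by tags per kb was 0.10 above that of shared regions. The enzymes and readers of acetylation lay near 0 (9 marked, median -0.04), among them the deacetylase gene Hdac4 (390 and 458 tags, -0.16 ± 0.10) and the bromodomain gene Brd3 (1004 and 1279, -0.04 ± 0.06).

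**Figure D4:**
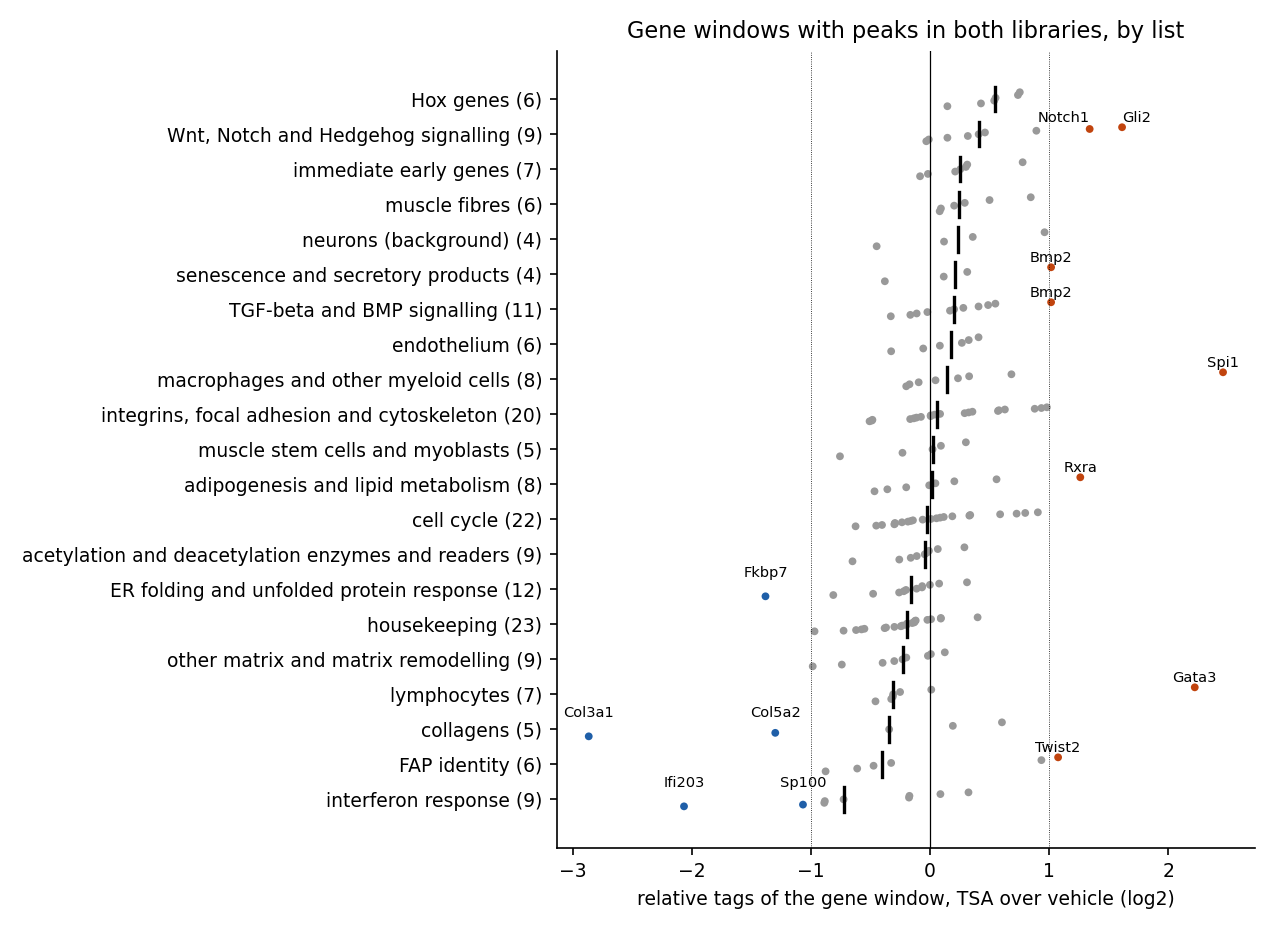
Relative tags (x axis, log2, TSA over vehicle) of every gene window with peaks in both libraries, for the lists with at least 4 such members (number in brackets); black bars are medians, dotted lines mark -1 and 1, and genes past them are named. With all peaks, interferon genes have the lowest median (-0.73) and Hox genes the highest (0.55) of the lists shown.

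Several windows with the largest relative gain belong to genes used as markers of other cells. Spi1, the master regulator of myeloid cells, had 34 tags with vehicle and 246 with TSA (2.46 ± 0.26), its start marked with TSA only. Siglec1, a macrophage adhesion receptor, had 35 and 303 (2.72 ± 0.26), its start unmarked in both libraries. Gata3, a factor of T cells that also acts in mesenchyme, had 73 and 448 (2.22 ± 0.18). F11r, expressed in epithelium, endothelium and leukocytes, had 58 and 532 (2.80 ± 0.20), the highest of windows with at least 100 tags in a library. Siglec1 and F11r are in none of the marker lists and were named for their values here. Over the whole list of myeloid markers, the starts of 2 of 16 genes, among them Spi1, were marked with TSA, none with vehicle, and 8 of 16 windows had no peak, among them those of the defining genes Ptprc (CD45) and Mrc1 (CD206). The summed tags of the list were 1661 with vehicle and 2834 with TSA, against 452476 and 631446 over all peaks of the stretch. Its 8 windows with peaks in both libraries had a median of relative tags of 0.14 (-0.12 by tags per kb), against 0.02 over all windows. Of the 7 lymphocyte markers with peaks in both libraries, the list that holds Gata3, 5 lay below 0, against 815 of 1713 over all windows. Their median was -0.31. Of 19 muscle fibre genes, 11 had no peak, 18 starts were unmarked in both libraries and 1, Casq1, was marked with TSA only. Summed tags of the fibre genes were 1838 and 3018, with a median of relative tags of 0.25 (-0.10 by tags per kb). Of 8 endothelial genes 6 starts were marked in both libraries, including that of Egfl7, which hosts Mir126a. Summed tags of the endothelial genes were 3355 and 5130, with a median of relative tags of 0.18 (-0.12 by tags per kb). Of 26 background genes of neurons 18 lay in the stretch, and the starts of 3 were marked with TSA only (Syt2, Lhx2 and Lhx4). The part of other cells in these differences was not tested. Over all 2825 genes, starts were marked in both libraries for 1473 (52.1%), with TSA only for 139 (4.92%) and with vehicle only for 16 (0.566%).

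MicroRNA genes gave a contrast within 1 family. Of 123 hairpins in the stretch 17 had a peak within 2000 bp, all 17 in both libraries. Mir199a-2, which lies in an intron of Dnm3 and is abundant in mesenchyme, had 409 tags with vehicle and 327 with TSA (-0.72 ± 0.11). Mir199b, in the Dnm1 gene, had 73 and 258 (1.43 ± 0.19), with 3 gained regions and 1 shared. Their mature 3p products are the same RNA, printed here from RefSeq with the seed (bases 2 to 8) in capitals beside the other mature forms discussed.
mmu-miR-199a-3p: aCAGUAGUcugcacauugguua
mmu-miR-199b-3p: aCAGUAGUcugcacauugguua
mmu-miR-199a-5p: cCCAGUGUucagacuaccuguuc
mmu-miR-126a-3p: uCGUACCGugaguaauaaugcg
mmu-miR-206-3p: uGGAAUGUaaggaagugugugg
Mir126a, an endothelial microRNA, had 566 and 850 tags (0.19 ± 0.08). Mir206, a muscle microRNA, had no peak within 2000 bp in either library, nor had Mir133b, Mir214 or Mir10b. Mir3089 was also past 1, on few tags (28 and 136).

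Promoters were grouped by base composition. Each start was given the region with the most tags within 1000 bp. Among starts whose 250 upstream bases had under 45% G and C, that was a gained region for 0.81% (0.26 to 1.88), and among those with 75% or more 10.4% (5.95 to 16.6). The intermediate classes of 45 to 55, 55 to 65 and 65 to 75% had 4.97, 6.08 and 8.81%. The share of starts at shared regions went the same way, from 14.7% to 81.9%. Of starts with any region, gained ones made up 5 of 100 in the lowest class and between 8.18% and 11.3% in the others, without a steady order. Starts at lost regions numbered 20, with a median of 47.6% G and C, against 156 at gained regions with 61.2%, the latter equal to the median of the shared starts with relative tags between -0.5 and 0.5. Within shared regions the median of relative tags went from -0.17 in the lowest class through -0.07, -0.01 and 0.05 to 0.12 in the highest. By start, G and C content and relative tags had a Spearman correlation of 0.203 (n = 1189 shared regions with 1 start each, which share the 2 libraries and their depth). In the H3K27ac libraries of young FAPs it was 0.186 (n = 1037), and in the H3K9/14ac libraries of old FAPs -0.002 (n = 1162).

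**Figure D5:**
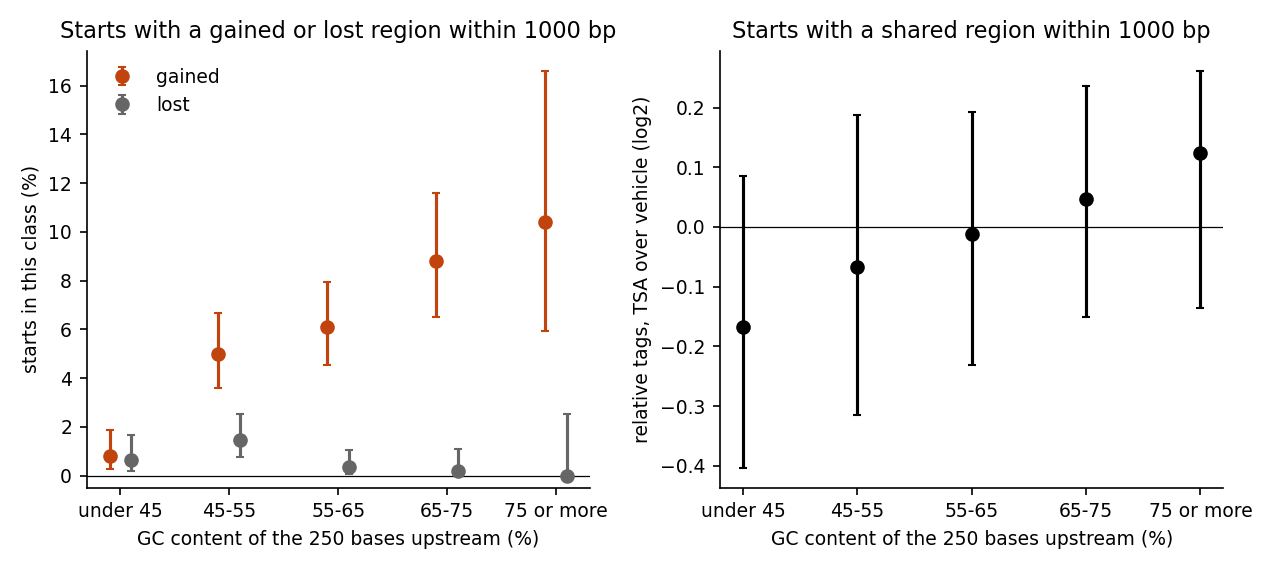
Left, share of starts (y axis, %) at a gained or lost region by G and C content of the 250 bases upstream (x axis, %), with 95% exact binomial intervals. Right, median relative tags (log2) of starts in shared regions with the middle 50% of starts as bars; the median goes from -0.17 to 0.12.

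Motifs were compared with the shared starts whose relative tags lay between -0.5 and 0.5. The GC box was found upstream of 59.6% of starts at gained regions, 65.1% of shared starts with relative tags above 0.5 and 43.8% of those below -0.5, against 62.7% of the shared starts between and 41.3% of all 2919. It was found at 5 of the 20 starts of lost regions. The CCAAT box was found in 32.1%, 30.3% and 44.6%, against 32.2% between and 32.7% of all. The ETS motif (CCGGAAG), common in promoters of housekeeping genes, was found in 3.85%, 6.42% and 17.7%, against 15.6% between and 8.63% of all. Both starts with the endoplasmic reticulum stress element were in the class below -0.5. These shares describe letters in a window of 250 bases and say nothing of the factors.

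The other mark was measured in young FAPs under the same treatments. Over 1724 shared regions with H3K27ac peaks in both young libraries, relative tags of the 2 marks had a Spearman correlation of 0.326; the regions share DNA sequence, but the libraries are separate. Of the 40 higher regions 20 had an H3K27ac value, above 0 in 18, and of the 76 lower regions 67 had one, below 0 in 39. Over all 1724 regions it was above 0 in 1398 and below in 326. By gene windows, 18 of the 22 lower windows were below 0 in H3K27ac, against 752 of 1557 over all windows with a value. Among the lower, Col3a1 had 3917 tags with vehicle and 1930 with TSA (-0.90 ± 0.04) and Col5a2 2488 and 778 (-1.55 ± 0.06). Of the 69 higher windows 40 had an H3K27ac value, 22 above and 18 below 0, near the 805 and 752 over all windows. At Notch1 H3K27ac was 3140 and 2910 tags (0.01 ± 0.04), and at F11r 1406 and 1360 (0.08 ± 0.05). The Siglec1 window held 874.8 and 877.0 H3K27ac tags (0.13 ± 0.07). Spi1, Gata3, Chst1 and Bmp2 had no H3K27ac peak in either young library.

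The H3K9/14ac libraries of old FAPs, after the same treatment at 12 months, lay on the other side of 0 at most of these genes. Relative tags of the young and old comparisons had a Spearman correlation of -0.169 over 1883 regions. Of 62 windows that were past 1 in young FAPs and had a value in old, 42 were below 0 in old and 20 above, and of 19 windows past -1, 12 were above 0 and 7 below. Over all 1681 windows with a value at both ages, 755 were above 0 in old FAPs and 925 below. Col3a1 had 40 tags over 160 bp with vehicle and 214 over 1761 bp with TSA in old FAPs. Gli2 had 783 tags over 4275 bp and 277 over 2306 bp, so that covered length differed there as well. With 1 library for each age and treatment this difference between ages was not tested. It cannot be told apart from an exchange of labels or a difference in library enrichment or depth.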

How the data were processed

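Peaks came from ChIP-seq of H3K9/14ac in sorted FAPs, 1 library for TSA and 1 for vehicle. Per the file headers, the deposited lists were written by HOMER's program for differential peaks with each library compared with itself, so that its fold change is 1 throughout, and Total Tags are counts of tags that the authors did not scale. The submitters' processing notes name Bowtie 0.12.7, HOMER, MACS2 and GRCm38, without saying which made these lists. The lists break off, and only chromosome 1 and chromosome 2 to position 167064301 were compared. Peaks that overlapped by at least 1 bp or touched were merged into regions, and the log2 ratio of tags in each was centred on the median of shared regions to give relative tags, with an error from counting alone. Genes, starts, promoters and miRNAs came from RefSeq GRCm38.p6 tables: 2402 of 2825 protein-coding genes had a start there, and both gene ends were used for the other 423. Named were the 12 highest and 12 lowest shared start regions with at least 100 tags in a library, the 10 gained and 10 lost regions and the 5 per library with the most tags, list members past the threshold or marked in 1 library with others for contrast, and genes with at least 3 gained regions. The members and the 24 gene lists were chosen with earlier results of these data known. Alternatives changed the centring, the peak threshold, list length, window size, minimum tags and the use of tags per kb. The merging and centring were tested on simulated data. Python 3.11.15, numpy 2.4.6, pandas 2.3.3, scipy 1.17.1 and matplotlib 3.10.9 were used. Input libraries and RNA-seq were not analysed here. A few genes that these rules select are not reported here.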

Additional observations from a re-analysis of the deposited data

Results flagged for a closer look

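Of 1681 gene windows with a value at both ages, 81 lay past 1 or -1 on the log2 scale in young FAPs. Of these, 18 did so in old FAPs too, all in opposite directions at the 2 ages and none in the same. With 1 library per age and treatment the difference was not tested. An effect of age cannot be told apart here from exchanged labels or from library enrichment or depth.

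Lower with TSA in young FAPs and higher in old were 7 windows. Relative tags were -2.87 in young and 2.89 in old for Col3a1, -2.07 and 1.02 for Ifi203, -1.96 and 1.59 for Tfpi, -1.70 and 2.36 for Calcrl, and -1.22 and 2.38 for Fgf7. Ttc30a1 and Ttc30a2, neighbours that share peaks, each had -1.13 and 1.34. The windows of Tfpi and Calcrl overlap as well, and each held 107 tags in the old vehicle library, so that they are not separate observations.

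Higher in young and lower in old were Siglec1 (2.72 and -1.40), Gata3 (2.22 and -1.47), Ak1 (1.63 and -1.14), Gli2 (1.61 and -1.03), Mall (1.36 and -1.09), Rxra (1.26 and -1.21), 6330409D20Rik (1.21 and -1.07), Sla2 (1.15 and -1.42), Necab3 (1.04 and -1.20) and Rbm44 (1.03 and -1.03). Aff3 had 105 tags with vehicle and 296 with TSA in young FAPs, and relative tags of -1.15 in old. Rxra had 679 tags with vehicle and 2140 with TSA in young FAPs, against 3105 and 970 in old. Covered length differed likewise, at Rxra with 3869 bp (vehicle) and 12939 bp (TSA) in young and 17883 and 6864 bp in old. At Col3a1 it was 1745 and 356 bp in young and 160 and 1761 bp in old. By tags per kb 0 windows were past 1 or -1 in young FAPs. Relative tags per kb were not computed for the windows of old FAPs.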

How the results depend on the processing

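Of 756 comparisons of a result with an alternative, 533 stayed within the tolerance, 198 moved and 25 reversed, all 25 under tags per kb. With only the upper 50% of peaks by tags, gained, lost and shared regions numbered 403, 48 and 1251, and 63.03%, 41.67% and 89.85% of them touched start windows; shared regions above 1 and below -1 numbered 1 and 18, windows above 1 numbered 28 and windows with vehicle peaks only 13. With lists of equal length 635 regions were gained and 393 lost, and start windows held 30.87% of gained and 32.82% of lost regions. With start windows of 2500 bp the shares were 35.07%, 49.85% and 81.83%. Centred on housekeeping starts (ratio 0.20 in place of 0.39), 75 shared regions lay above 1 and 40 below -1, and 112 windows above and 14 below. With at least 50 tags in each library the counts of shared regions were 22 and 47. By tags per kb the median ratio was 0.29, and 0 shared regions lay above 1 and 5 below -1, with 0 windows either way. On that scale 29 of 51 named windows and 8 of 24 named regions changed sign, among them Dll4, Gsn, Tns1, Niban2, Nr1h3, Hspa5, Ifih1, B2m and Thbs1, which were not past the threshold. Of those past it, these windows changed sign: Notch1 (-0.40), Rxra (-0.38), Gata3 (-0.063), Spi1 (-0.26), Siglec1 (-0.36), F11r (-0.0495), Zmynd8 (-0.15), Dgkz (-0.32), Prdm11 (-0.10), Tgm2 (-0.21), Hspa12b (-0.46), Tmcc2 (-0.20), Nol4l (-0.22), Chst1 (-0.23), Ak1 (-0.47), Fkbp7 (0.50) and Mndal (0.0626). So did the regions of Tcf15 (-0.23), Chst1 (-0.28), Sstr4 (-0.62), Ak1 (-0.63), Kcnip3 (-0.26), Gpr176 (-0.28), Ciz1 (-0.56) and Fam78b (-0.29). Tags per kb divide by peak length, which differed between the libraries at these places. No paired analysis was possible because each group had 1 library. Depth is known only as tags in peaks, so a place without a peak is not shown to lack acetylation.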
